A study of Mus musculus with 9 samples.

Results

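The genes described here are the TGF-beta ligands, receptors and SMAD proteins of the mouse hippocampus: Tgfb1, Tgfb2, Tgfb3, Inhba, Tgfbr1, Tgfbr2, Tgfbr3, Smad2, Smad3 and Smad7. They were taken by gene symbol from the deposited expression table, and 10 of its 18474 protein-coding genes have one of these symbols. All 10 were abundant enough to be tested. Their levels were followed over 9 RNA-seq libraries of hippocampal tissue from wild-type mice, with 3 libraries a group. The sham group was sampled 30 days after a control treatment. The KA group was sampled 30 days after injection of KA, taken to be kainic acid, which activates a class of glutamate receptors and sets off seizures. The KA+NBP group was sampled 30 days after KA+NBP treatment, with NBP read as the butylphthalide of the study's title. The design text describes a sham operation, random allocation and 3 mice drawn at random from each group, so a library stands for 1 mouse. The dose and timing of NBP, and the strain, age and sex of the mice, are not given in the sources used here.

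TGF-beta ligands are secreted in a latent form, bound to their own propeptide and to binding proteins of the matrix, and are released by integrins, thrombospondin or proteases. An active ligand joins the type II receptor (Tgfbr2) to the type I receptor (Tgfbr1), which phosphorylates Smad2 and Smad3. These SMADs enter the nucleus with Smad4, and one of the genes they turn on, Smad7, encodes an inhibitor of the receptor. Activin, the dimer of the Inhba product, uses its own receptors and the same Smad2 and Smad3. In brain, the pathway is known for microglial maintenance, astrocyte responses to injury and the stability of blood vessels.

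Library totals ran from 15699251 to 16374637 estimated counts, so a count of 0 in a library allows up to 0.183 to 0.191 CPM, for counting error only. CPM are counts scaled to a common library size, with the library total scaled by its normalization factor. The 10 neuronal and the 8 dentate granule cell markers were above 0 in all 9 libraries, as the tissue label requires. The library KA+NBP replicate 2 stood apart from the others of its group. Its choroid plexus markers summed to 2610 TPM (a level that accounts for transcript length), against 49.8 to 100 in sham and 52.3 to 67.4 in KA. In this library Ttr alone made 2550 TPM of the sum. Its other 7 choroid plexus markers summed to 67.1 TPM, against 17.9 to 22.3 in sham and 9.01 to 12.7 in KA. Its astrocyte markers summed to 5790 TPM, against 2620 to 2920 in sham and 7620 to 9000 in KA, and much of that gap was Gfap, at 2440 TPM against 321.0 to 402.0 and 4280 to 5380. The other 9 astrocyte markers summed to 3350 TPM, against 2280 to 2510 in sham and 3340 to 3620 in KA. Its oligodendrocyte markers summed to 8200 TPM, the highest of the 9 libraries. Fold changes and counts that rest on the KA+NBP group are therefore also given without this library.

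In the KA hippocampus the 3 TGF-beta ligands, the activin subunit gene, both signalling receptors and the inhibitory SMAD were higher than in sham. The co-receptor Tgfbr3 was lower, and Smad2 and Smad3 did not pass the test. Thus 7 of the 10 genes rose and 1 fell at an adjusted p under 0.05 in edgeR's quasi-likelihood test, adjusted over 14752 genes. Over all genes tested, 19.0% were called higher and 14.6% lower. The median log2 fold change of the 10 genes was 0.82, and that of all genes tested was 0.01. The 3 libraries of KA lay wholly above or below those of sham for 8 of the 10 genes, the 8 called, where 56.3% of all genes did so. Without sham replicate 1, 5 of the 10 were called, as Tgfb2, Inhba and Tgfbr3 missed the threshold. Of all 14933 genes tested in that fit, 1629 were called higher and 1092 lower. Without KA+NBP replicate 2, which enters this fit only through the shared spread, all 8 passed, where 24.8% of all genes were called higher and 20.4% lower. In whole tissue, fewer cells of a type and less RNA per cell cannot be told apart.

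**Figure D1:**
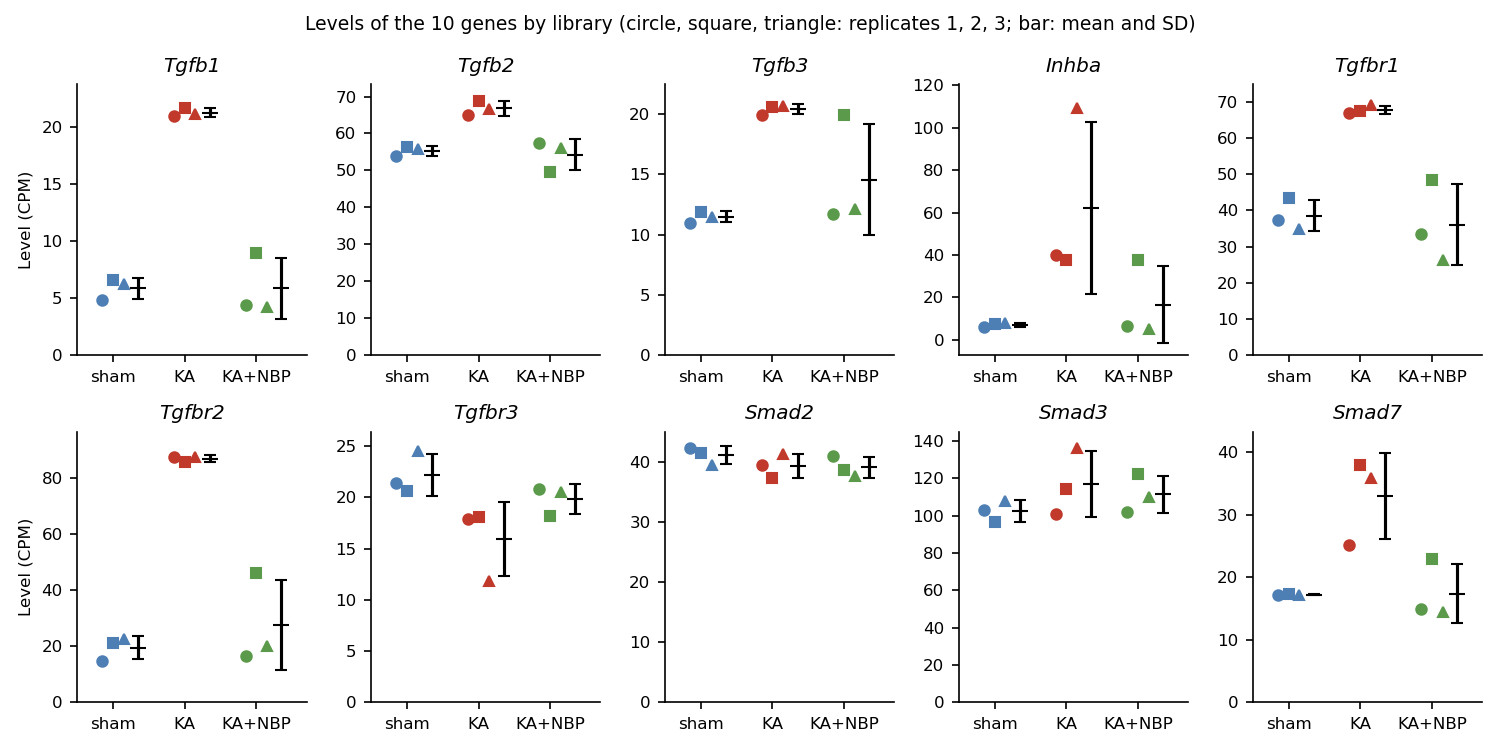
Level of each gene (CPM, linear axes) in the 9 libraries. Circles, squares and triangles are replicates 1, 2 and 3, and the black bar beside each group is the mean with its SD (n = 3). For Inhba the SD bar of KA+NBP extends below 0 because 1 library lies far above the other 2. In most panels the KA libraries lie apart from sham, and the KA+NBP square (replicate 2) lies nearer to KA than the circle and triangle do.

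Tgfb1 encodes the ligand made mostly by microglia in brain. The table places it at chr7:25386406-25404503 on the plus strand of GRCm39. It stood at 4.8, 6.59 and 6.21 CPM in sham and at 21.0, 21.7 and 21.2 CPM in KA, so the lowest KA library was far above the highest sham library. The means were 5.87 ± 0.942 and 21.3 ± 0.363 CPM (SD, n = 3), a fold of 3.63 (log2 fold change 1.86, SE 0.27, adjusted p = 0.0021). Leaving out any 1 library kept the log2 fold change between 1.73 and 1.93 and the adjusted p at or under 0.0143.

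Tgfb2, at chr1:186354984-186441504 on the minus strand, encodes the ligand with the highest level per length in sham. It stood at 53.8, 56.4 and 55.7 CPM in sham and at 64.9, 68.8 and 66.7 CPM in KA. Its groups did not overlap, but the fold was 1.21 (log2 fold change 0.27, SE 0.07, adjusted p = 0.0168). Leaving out sham replicate 1 gave an adjusted p of 0.0687, and leaving out sham replicate 2, sham replicate 3 or KA replicate 2 gave 0.0555, 0.0562 and 0.054, so each of these 4 libraries decided the call. With limma on log2(TPM + 1) the log2 fold change was 0.19 and the adjusted p 0.0519.

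Tgfb3, at chr12:86103517-86126528 on the plus strand, encodes the remaining TGF-beta isoform. It stood at 11, 11.9 and 11.5 CPM in sham and at 19.9, 20.6 and 20.7 CPM in KA, with a narrow spread in each group. Its fold was 1.77 (log2 fold change 0.83, SE 0.19, adjusted p = 0.0103).

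Inhba, at chr13:16178841-16206860 on the plus strand, encodes the beta A subunit shared by activin A and inhibin A, and in neurons it is known as an activity-induced gene. It stood at 5.92, 7.52 and 7.85 CPM in sham and at 39.8, 37.5 and 109.0 CPM in KA. It had the largest fold of the 10 genes and, in KA, the largest coefficient of variation, 65.2%, because KA replicate 3 was far above the other KA libraries. The means were 7.10 ± 1.03 and 62.0 ± 40.5 CPM (SD, n = 3), a fold of 8.73 (log2 fold change 3.13, SE 0.74, adjusted p = 0.0129). Without KA replicate 3 the log2 fold change was 2.44 (SE 0.72, adjusted p = 0.044). Without sham replicate 1 it was 3.01 and the adjusted p 0.0563.

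Promoter sequence came from RefSeq on GRCm38.p6, another build than that of the gene spans. It was used for 6 of the 10 genes, in 7 windows that run from 250 bases before to 50 bases after an annotated start. Tgfb3, also called higher in KA, and Tgfbr3 had no window among these. The windows of 3 ligand genes called higher in KA, by 3.63, 1.21 and 8.73 fold, are printed for comparison of their start regions. They are Tgfb1 at chr7:25686752-25687051 (plus strand), Tgfb2 at chr1:186705940-186706239 (minus strand) and Inhba at chr13:16011601-16011900 (plus strand), each 5′ to 3′ on the gene's strand. Capitals mark matches to the motifs searched.
Tgfb1: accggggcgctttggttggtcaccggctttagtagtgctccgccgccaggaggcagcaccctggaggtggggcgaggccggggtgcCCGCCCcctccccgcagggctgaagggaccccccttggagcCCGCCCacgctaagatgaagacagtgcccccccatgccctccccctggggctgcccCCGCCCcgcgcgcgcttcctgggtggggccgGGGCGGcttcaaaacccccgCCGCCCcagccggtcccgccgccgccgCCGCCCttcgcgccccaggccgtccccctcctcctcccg
Tgfb2: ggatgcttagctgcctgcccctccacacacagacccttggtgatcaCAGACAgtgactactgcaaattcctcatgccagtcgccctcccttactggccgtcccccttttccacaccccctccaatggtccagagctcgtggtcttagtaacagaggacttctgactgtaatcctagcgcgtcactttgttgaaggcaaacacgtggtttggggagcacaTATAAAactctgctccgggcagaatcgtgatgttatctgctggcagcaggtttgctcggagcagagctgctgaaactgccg
Inhba: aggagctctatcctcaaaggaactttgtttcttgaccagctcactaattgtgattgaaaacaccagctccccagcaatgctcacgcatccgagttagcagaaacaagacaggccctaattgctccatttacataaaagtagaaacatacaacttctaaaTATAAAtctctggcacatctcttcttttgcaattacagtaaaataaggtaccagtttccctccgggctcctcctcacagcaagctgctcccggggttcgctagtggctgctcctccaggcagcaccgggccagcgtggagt

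The motifs, searched on both strands, were the GC box GGGCGG, the TATA box TATAAA, the CAGA box CAGACA, the SMAD box GTCTAGAC, the AP-1 site TGANTCA and the cAMP response element TGACGTCA. The Tgfb1 window is 77.0% G and C and holds 6 GC boxes and no TATA box. The Tgfb2 window is 54.3% G and C, with a TATA box whose first base is at -31 from the start and a CAGA box at -204. The Inhba window is 47.7% G and C and holds 1 match, a TATA box at -91. Of 32851 mouse windows of this length, 35.7% hold the GC box, 13.6% the TATA box and 21.0% the CAGA box. The letters of the SMAD box, the AP-1 site and the cAMP response element are in 0 of the 7 windows, and in 0.213%, 7.81% and 1.79% of all windows. Smad2 and Smad7 were not searched, whether or not the source holds windows for them, so the search says nothing about their start regions. These matches describe letters and not bound sites.

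Among the receptors, Tgfbr2 encodes the type II receptor that binds the ligand first, and the table places it at chr9:115916763-116004431 on the minus strand. It stood at 14.8, 21.1 and 22.7 CPM in sham and at 87.4, 85.4 and 87.4 CPM in KA. The KA libraries were almost identical and all far above sham. The means were 19.6 ± 4.17 and 86.7 ± 1.13 CPM (SD, n = 3), a fold of 4.43 (log2 fold change 2.15, SE 0.34, adjusted p = 0.00289).

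Tgfbr1, at chr4:47353222-47414926 on the plus strand, encodes the type I receptor kinase. It stood at 37.4, 43.4 and 34.9 CPM in sham and at 66.9, 67.4 and 69.0 CPM in KA, again without overlap. Its fold was 1.76 (log2 fold change 0.81, SE 0.18, adjusted p = 0.0106), smaller than that of its partner Tgfbr2, a difference that was not tested.

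Tgfbr3, at chr5:107254433-107437495 on the plus strand, encodes betaglycan, a co-receptor without a kinase that presents TGF-beta2 in particular. It was the gene that fell. It stood at 21.4, 20.6 and 24.5 CPM in sham and at 17.9, 18.1 and 11.8 CPM in KA, where replicate 3 was the lowest. The level was 1.39 fold lower in KA (log2 fold change -0.47, SE 0.16, adjusted p = 0.0454). This call lies close to the threshold: without KA replicate 3 the log2 fold change was -0.30 and the adjusted p 0.0753. It was also lost without sham replicate 1 (0.0956), sham replicate 2 (0.0635), sham replicate 3 (0.149), KA+NBP replicate 1 (0.0596) or KA+NBP replicate 3 (0.0547), and with the replicate number as a block (0.0686).

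Of the receptor-activated SMADs, which carry the signal into the nucleus, neither passed the test. Smad2 stood at 42.3, 41.5 and 39.5 CPM in sham and at 39.4, 37.2 and 41.2 CPM in KA, so the groups overlapped. Its log2 fold change was -0.07 (SE 0.07, adjusted p = 0.467). Smad3, at chr9:63554048-63665276 on the minus strand, stood at 103.0, 96.5 and 108.0 CPM in sham and at 101.0, 114.0 and 136.0 CPM in KA. Its highest library was KA replicate 3, its lowest KA library lay within the sham range, and its log2 fold change was 0.19 (SE 0.11, adjusted p = 0.223).

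Smad7, the inhibitory SMAD that the pathway itself induces, stood at 17.2, 17.3 and 17.1 CPM in sham. The coefficient of variation there, 0.618%, was the smallest of the 10 genes. At 275, 278 and 272 counts this is less than counting error alone tends to give, so it does not measure the spread between mice. In KA, Smad7 stood at 25.2, 37.9 and 35.9 CPM, all above sham, with replicate 1 the lowest. Its fold was 1.92 (log2 fold change 0.94, SE 0.20, adjusted p = 0.00776).

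**Figure D2:**
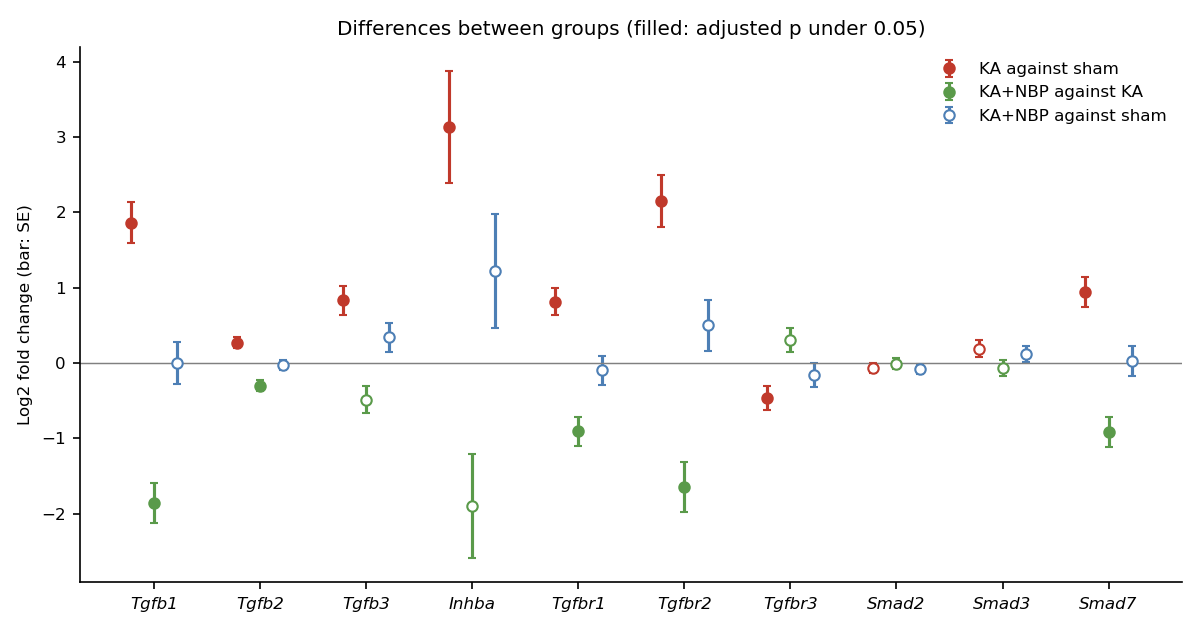
Log2 fold change of each gene in KA against sham, KA+NBP against KA and KA+NBP against sham, from edgeR, with its SE as a bar. Filled points passed an adjusted p of 0.05: 8 in the first comparison, 5 in the second and 0 in the third.

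Markers of several cell types moved in the same comparison, in which 19.0% of all genes were called higher and 14.6% lower. The summed microglial markers stood at 444.0 to 526.0 TPM in sham and at 1570 to 1640 TPM in KA, with 11 of 12 called higher. The astrocyte sum, given above for both groups, had 9 of 10 called higher. Of the mural markers (pericytes and vascular smooth muscle), 9 of 10 were called higher, with sums of 89.5 to 98.8 TPM in sham and 140.0 to 155.0 in KA. The endothelial sum moved from 232.0 to 298.0 TPM in sham to 349.0 to 367.0 in KA, with 7 of 10 called higher.

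Of 7 fibroblast and meningeal markers tested, 1 was called higher, while their sum was 79.4 to 109.0 TPM in sham and 250 to 310.0 in KA. Most of that difference was Igfbp2, at 34.1 to 54.4 and 170.0 to 256.0 TPM, and the other 7 markers summed to 45.2 to 54.8 TPM in sham and 53.6 to 80.1 in KA. Of the neuronal markers 6 of 10 were called lower, with sums of 5520 to 5880 TPM in sham and 3800 to 4320 in KA. Of the dentate granule cell markers 4 of 8 were lower and 2 higher (452.0 to 507.0 TPM in sham, 372.0 to 428.0 in KA). The oligodendrocyte markers had 0 of 7 called, with sums of 4570 to 6870 TPM in sham and 5390 to 6990 in KA. Of the choroid plexus markers 1 of 7 was called lower. Of the blood leukocyte markers 3 could be tested and 0 were called. They summed to at most 36.5 TPM in any sham library and 21.0 in any KA library. The part of these cell types in the levels of the 10 genes was not tested.

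After KA+NBP treatment, 5 of the 10 genes were lower than in KA: Tgfb1, Tgfb2, Tgfbr1, Tgfbr2 and Smad7. None of the 10 was higher. Over all genes tested, 12.7% were called lower and 10% higher in this comparison. For 8 of the 10 genes every KA+NBP library lay on the same side of every KA library, which held for 36.6% of all genes. The median log2 fold change of the 10 genes was -0.70 and that of all genes tested -0.01. The KA libraries also enter the comparison with sham above, so the 2 comparisons share them.

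Tgfb1 stood at 4.39, 8.99 and 4.21 CPM in KA+NBP, every library well under the lowest KA library of 21.0. The log2 fold change against KA was -1.86 (SE 0.27, adjusted p = 0.00379). Tgfbr2 stood at 16.5, 46.1 and 20.2 CPM, with replicate 2 between the other KA+NBP libraries and KA. Its log2 fold change was -1.65 (SE 0.33, adjusted p = 0.0109). Both genes were thus lower in 3 of 3 KA+NBP libraries than in any KA library, by amounts that differed from mouse to mouse.

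Tgfbr1 stood at 33.5, 48.3 and 26.4 CPM (log2 fold change -0.91, SE 0.19, adjusted p = 0.0114). Smad7 stood at 14.9, 22.9 and 14.4 CPM (log2 fold change -0.92, SE 0.20, adjusted p = 0.0135). For these 2 genes, too, replicate 2 was the highest of its group and still under the lowest KA library. Tgfb2 went the other way in that library: it stood at 57.3, 49.5 and 56.1 CPM, with replicate 2 the lowest (log2 fold change -0.30, SE 0.07, adjusted p = 0.0177). The Tgfb2 call was lost without KA replicate 2 (adjusted p = 0.0549), and the Smad7 call without KA+NBP replicate 1 (0.0553). In a fit of only the 6 libraries of these groups, 3 of the 10 genes were called, as Tgfb2 (0.0635) and Smad7 (0.0594) missed the threshold. The calls kept were Tgfb1 (0.0302), Tgfbr2 (0.0468) and Tgfbr1, whose adjusted p rounds to 0.05, so the last 2 lay close to the threshold. Of all genes, 1065 of 14629 were called in that fit.

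The other 5 genes did not pass against KA. Tgfb3 stood at 11.7, 19.9 and 12.1 CPM in KA+NBP, where replicate 2 equalled the lowest KA library to 3 digits (log2 fold change -0.49, SE 0.18, adjusted p = 0.0849). Inhba stood at 6.8, 37.5 and 5.34 CPM, again with replicate 2 equal to the lowest KA library to 3 digits (log2 fold change -1.90, SE 0.69, adjusted p = 0.0754). Without KA replicate 3 the Inhba estimate was -1.22 (adjusted p = 0.261), and with limma on log2(TPM + 1) it was called, at an adjusted p of 0.0436.

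Tgfbr3 stood at 20.8, 18.2 and 20.5 CPM, all above KA, with a log2 fold change of 0.31 (SE 0.16, adjusted p = 0.179), and without KA replicate 3 it was 0.14. Smad3 stood at 102.0, 122.0 and 110.0 CPM (log2 fold change -0.07, SE 0.11, adjusted p = 0.674). Smad2 stood at 40.9, 38.6 and 37.6 CPM (log2 fold change -0.01, SE 0.07, adjusted p = 0.938), and its sign turned with the scaling, to 0.07 with limma on log2(TPM + 1). For both SMADs all 3 KA+NBP libraries lay within the KA range.

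Without KA+NBP replicate 2, 7 of the 10 genes were called lower than in KA, and the share of all genes called lower was 23.6% in place of 12.7%. Tgfb3 then had a log2 fold change of -0.78 (adjusted p = 0.000155) and Inhba one of -3.35 (adjusted p = 0.0005). Among the genes called with all libraries, Tgfb1 moved to -2.31, Tgfbr2 to -2.24, Tgfbr1 to -1.18, Smad7 to -1.17 and Tgfb2 to -0.24. Tgfbr3 was then 0.37 (adjusted p = 0.0978), Smad3 -0.14 (0.345) and Smad2 0.00 (0.996). In that library the summed microglial markers stood at 884.0 TPM, against 1570 to 1640 in KA, and the mural markers at 128.0 TPM, against 140.0 to 155.0. Of the 12 microglial markers, 11 were called lower in KA+NBP than in KA, as were 7 of 10 astrocyte, 5 of 10 mural, 3 of 10 endothelial and 1 of 7 fibroblast and meningeal markers. Called higher were 5 of 10 neuronal markers, 3 of 8 dentate granule cell markers, with 1 lower, and 1 of 7 choroid plexus markers. Of the oligodendrocyte and leukocyte markers 0 were called. With all libraries, 12.7% of all genes were lower in KA+NBP than in KA and 10% higher. Without replicate 2 the markers called lower were 12 of 12 microglial, 10 of 10 astrocyte, 10 of 10 mural and 9 of 10 endothelial. Also lower were 4 of 7 fibroblast and meningeal and 3 of 3 leukocyte markers. Of the choroid plexus, dentate granule and oligodendrocyte markers, 2 of 7, 2 of 8 and 1 of 7 were lower. Those called higher were 7 of 10 neuronal, 4 of 8 dentate granule and 1 of 7 choroid plexus markers. Over all genes, 23.6% were lower and 19.2% higher in that fit. Over the 3 KA+NBP libraries the microglial sum ran up to 884.0 TPM, the value of replicate 2, the astrocyte sum from 2580 to 5790, the mural sum from 79.9 to 128.0, the endothelial sum from 254.0 to 344.0 and the neuronal sum from 4530 to 5750. The part of these cell types in the comparison was not tested.

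Against sham, 0 of the 10 genes were called in KA+NBP, as were 0.00% of all genes in either direction. At an unadjusted p under 0.05 edgeR gave 248 genes, 0 of them among the 10, and DESeq2 called 0 genes. All 10 genes had overlapping libraries in this comparison, and 6.37% of all genes did not overlap. A p that misses the threshold does not show that the levels were equal, and the SE tells what could have been seen. It was 0.07 for Tgfb2 and Smad2, 0.28 for Tgfb1, 0.34 for Tgfbr2 and 0.75 for Inhba on the log2 scale. The estimates were 0.00 for Tgfb1, 0.50 for Tgfbr2, 0.34 for Tgfb3, 1.22 for Inhba and -0.10 for Tgfbr1. Without KA+NBP replicate 2 they were -0.45 (SE 0.16), -0.10 (SE 0.16), 0.05 (SE 0.10), -0.23 (SE 0.54) and -0.36 (SE 0.12). Of the 10 genes 0 were called in that fit.

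The place of each KA+NBP library between the other groups can be given as a position on the log2 CPM scale, where the sham mean is 0% and the KA mean is 100%. KA+NBP replicates 1 and 3 stood at -21.5% and -24.6% for Tgfb1, at -10.3% and 3.04% for Tgfbr2 and at -1.71% and -13.4% for Inhba, all close to or beyond sham. Replicate 2 stood at 33.3% for Tgfb1, 44.9% for Smad7, 58.0% for Tgfbr2, 81.6% for Inhba and 95.7% for Tgfb3. The genes therefore did not share 1 position in this mouse. For Tgfb2, whose axis spans only 0.27 on the log2 scale, replicate 2 stood at -58.3%.

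**Figure D3:**
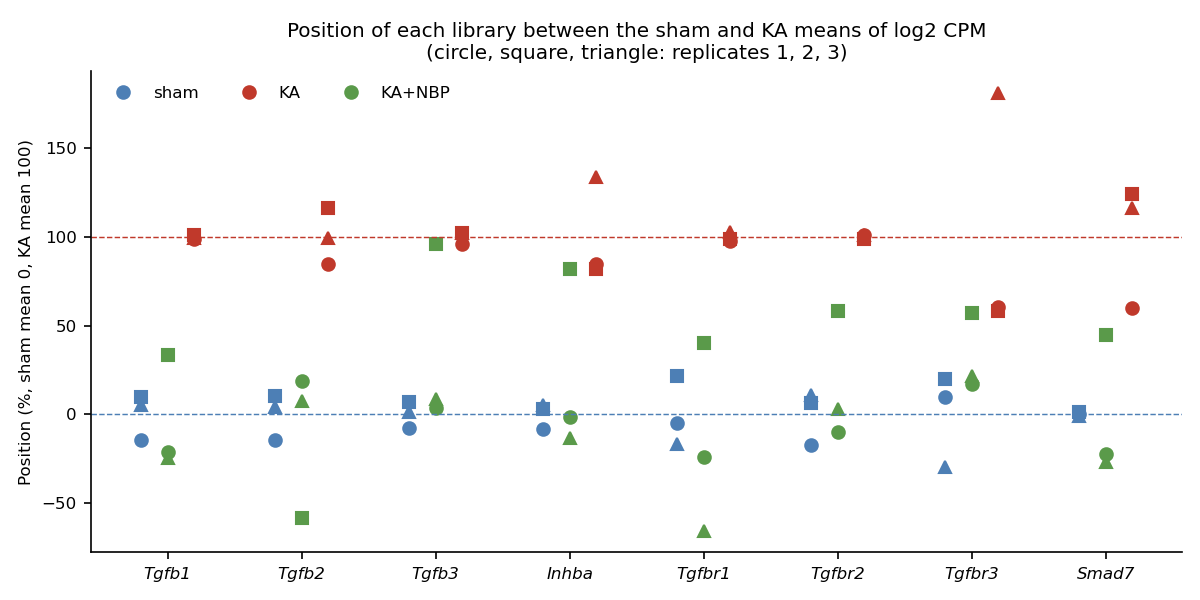
Position of each library on the log2 CPM axis from the sham mean (0%) to the KA mean (100%), for the 8 genes called in KA against sham. Circles, squares and triangles are replicates 1, 2 and 3. The KA+NBP square is spread from -58.3% for Tgfb2 to 95.7% for Tgfb3, while the KA+NBP circle and triangle lie between -65.6% and 21.6%.

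Levels of different genes were compared per transcript length, as TPM. In sham the order was led by Smad3 at 53.1 ± 2.76 TPM (SD, n = 3), followed by Tgfb2 at 28.2 ± 0.841 and Tgfbr1 at 17.5 ± 2.1. Smad2, Tgfbr2 and Smad7 followed at 12, 10.9 and 10.6 TPM, with Smad2 and Tgfbr2, and Tgfbr2 and Smad7, overlapping between libraries. Tgfbr3 at 9.47 and Tgfb3 at 9.18 TPM also overlapped. Tgfb1 at 7.68 ± 1.28 and Inhba at 2.76 ± 0.309 TPM came last.

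In KA, Smad3 still led at 58.2 ± 8.27 TPM, and Tgfbr2 had moved from the fifth place to the second at 45.7 ± 0.719. Tgfb2 (32.2), Tgfbr1 (29.1) and Tgfb1 (26.5 TPM) followed without overlap. Tgfb1, Inhba (23.0 ± 14.8), Smad7 (19.6) and Tgfb3 (15.4 TPM) overlapped each with the next. Smad2 at 10.8 and Tgfbr3 at 6.47 ± 1.51 TPM came last.

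In KA+NBP, Smad3 at 58.0 ± 7.11 and Tgfb2 at 27.6 ± 1.33 TPM led as in sham, and from Tgfbr1 at 16.5 ± 5.58 down to Inhba at 6.63 ± 7.45 TPM each gene overlapped the next. These overlaps rest in part on replicate 2. Without it, Tgfbr1 (15.1 and 11.8 TPM), Smad2 (11.8 and 10.7), Tgfbr2 (9.04 and 11) and Tgfb3 (9.23 and 9.46) overlapped each with the next, as did Tgfbr3 (8.81 and 8.61) and Smad7 (8.77 and 8.46). Tgfb3 and Tgfbr3, Smad7 and Tgfb1 (5.65 and 5.41), and Tgfb1 and Inhba (2.63 and 2.03) then did not. The coefficient of variation of CPM in this group was 110.0% for Inhba, 58.6% for Tgfbr2 and 46.3% for Tgfb1, and 4.3% for Smad2, where the first 3 genes each had replicate 2 far above the other libraries.

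The make-up of the ligand pool differed between the groups. Of the summed TPM of Tgfb1, Tgfb2 and Tgfb3, Tgfb1 made 14.8%, 18.4% and 17.8% in the sham libraries and 36.1%, 35.7% and 35.5% in KA. Tgfb2 made 64.6%, 61.3% and 62.1% of the sum in sham and 43.1%, 43.8% and 43.4% in KA, where its own level was the higher of the 2 groups. The share of Tgfb3 was 20.1% to 20.7% in sham and 20.5% to 21.1% in KA. In KA+NBP, Tgfb1 made 13%, 22.2% and 12.6%. The sum itself was 42.2 to 47.2 TPM in sham and 73.0 to 76.0 TPM in KA. The KA+NBP libraries had sums of 43.5, 54.6 and 42.8 TPM.

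Of the summed TPM of the 3 receptors, Tgfbr2 made 24.0%, 29.2% and 32.6% in the sham mice. It made 56.1%, 55.4% and 57.2% in the KA mice, and 27.5%, 46.3% and 35.1% after KA+NBP. The ratio of Tgfbr2 to Tgfbr1 was 0.485, 0.596 and 0.802 in sham and 1.60, 1.55 and 1.55 in KA, so in KA the type II receptor transcript outnumbered the type I transcript in all 3 mice. In KA+NBP it was 0.601, 1.17 and 0.936. Tgfbr3 made 21.9% to 26.8% of the receptor sum in sham and 5.95% to 9.0% in KA. The ratio of Smad3 to its inhibitor Smad7 was 4.77 to 5.21 in sham and 2.49 to 3.38 in KA. After KA+NBP it was 5.91, 4.57 and 6.66. These shares and ratios are restatements of the levels above, and were not tested.

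**Figure D4:**
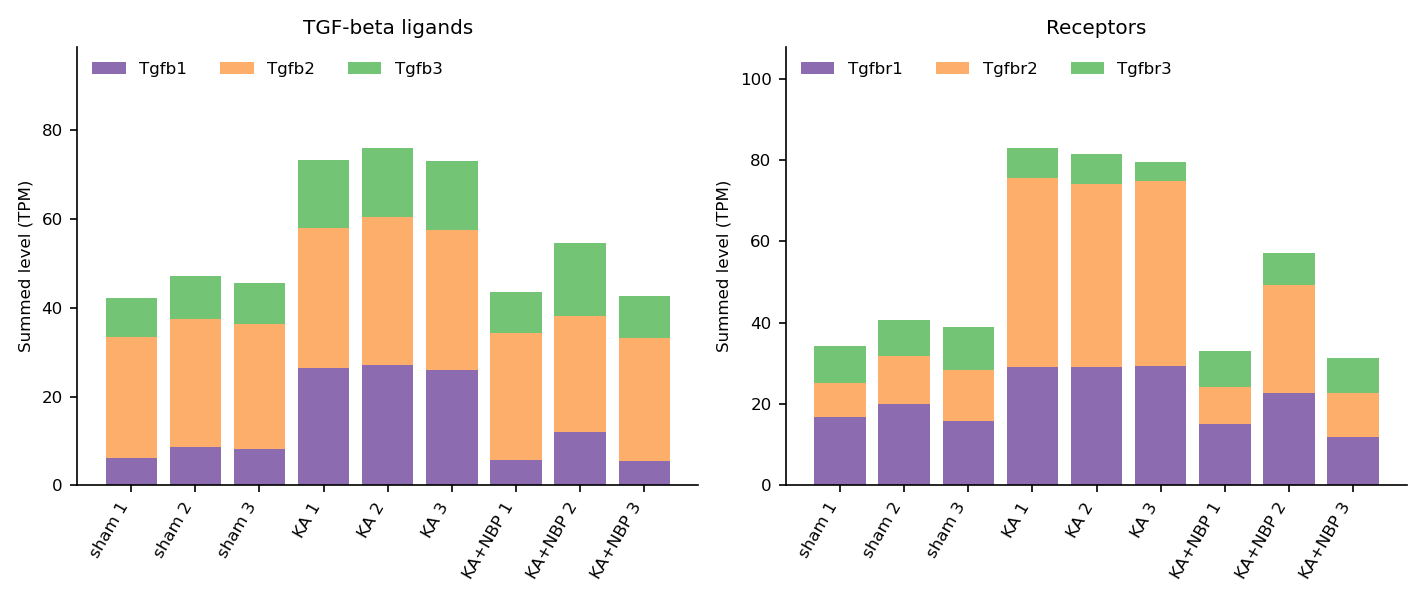
Summed level (TPM) of the 3 TGF-beta ligand transcripts (left) and of the 3 receptor transcripts (right) in each library, stacked by gene from 0. The Tgfb1 and Tgfbr2 parts are largest in the KA libraries, and KA+NBP replicate 2 lies between the other KA+NBP libraries and KA.

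The wider pathway was read from lists of other ligands, receptors, SMAD regulators, latency and activation genes and responsive transcripts, with none of the 10 genes among them. Of 29 latency, activation and antagonist genes tested, 15 rose in KA and 1 fell, with a median log2 fold change of 0.72, against 19.0% and 14.6% of all genes and a median of 0.01. Itgb5, an integrin subunit that pairs with the alpha V chain, rose by 1.77 on the log2 scale (SE 0.19, adjusted p = 0.000969). Thbs1, thrombospondin-1, an activator of latent TGF-beta, rose by 2.61 (SE 0.44, adjusted p = 0.00369), from 2.56 ± 0.606 to 15.7 ± 4.34 CPM. Ltbp1, which ties latent TGF-beta to the matrix, rose by 1.38 (SE 0.27, adjusted p = 0.00586).

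From the same list Bgn, the proteoglycan biglycan, rose by 2.56 (SE 0.52, adjusted p = 0.00693), and Fstl1, a follistatin-like protein, by 0.88 (SE 0.11, adjusted p = 0.00129). The number of these genes that rose was 8 without sham replicate 1, 8 without sham replicate 2, 9 without sham replicate 3 and 9 without KA replicate 2. Over all genes, 1629 of 14933, 1837 of 14915, 1688 of 14930 and 2137 of 14886 rose in these fits, against 2802 of 14752 with all libraries. Against KA, 9 of the 29 were lower in KA+NBP and 1 higher, where 12.7% and 10% of all genes were. That count of falls was 15 without KA+NBP replicate 2, where 23.6% of all genes were lower. It was 4 or 5 without any 1 KA library or either of the other KA+NBP libraries. All genes lower in those fits ranged from 772 of 14938 (without KA+NBP replicate 1) to 1203 of 14886 (without KA replicate 2). Itgb5 fell by 1.56 and Thbs1 by 2.06 on the log2 scale, both past the threshold, and without replicate 2 they fell by 1.88 and 2.76.

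Of 32 transcripts known to respond to TGF-beta, 17 rose in KA and 1 fell, where 19.0% and 14.6% of all genes did. Their median log2 fold change was 0.98, and that of all genes was 0.01. Sparc, a matrix glycoprotein, rose by 1.72 (SE 0.21, adjusted p = 0.00122), from 267.0 ± 8.12 to 880.0 ± 114.0 CPM. Fn1, fibronectin, rose by 1.03 (SE 0.14, adjusted p = 0.00175), and Ccn2, connective tissue growth factor, by 2.22 (SE 0.31, adjusted p = 0.00186). Pdgfb, a growth factor for mural cells, rose by 0.69 (SE 0.10, adjusted p = 0.00186). Timp1, an inhibitor of matrix metalloproteases, had 2 counts over the 3 sham libraries, 251 in KA and 33 in KA+NBP, a ratio of KA to sham of 125 with a 95% interval from counting of 34.2 to 1040.

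The count of rises among these responsive transcripts was 11 without sham replicate 1, where 1629 of 14933 genes rose. Against KA, 14 of the 32 were lower in KA+NBP and 0 higher, where 12.7% and 10% of all genes were. Sparc fell by 1.38 and Ccn2 by 1.65 on the log2 scale, and by 1.67 and 2.12 without KA+NBP replicate 2. The count of falls was 21 without that library, where 23.6% of all genes fell. It was 6 or 7 without KA replicate 1, KA replicate 3, KA+NBP replicate 1 or KA+NBP replicate 3. In these fits 1201 of 14882, 1003 of 14896, 772 of 14938 and 905 of 14935 genes fell, against 1875 of 14752 with all libraries. Many of the 32 responsive transcripts are known to respond to other signals too. The microglial, astrocyte and vascular marker sums given above were higher beside them, and their part was not tested.

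Of the other ligands of the superfamily, 3 of 16 tested were higher and 3 lower in KA, with a median log2 fold change of -0.14. These counts are near the shares of all genes, 19.0% higher and 14.6% lower. Bmp3 rose by 3.29 on the log2 scale (SE 0.71, adjusted p = 0.00876), Bmp6 by 1.87 (SE 0.50, adjusted p = 0.0202) and Bmp4 by 1.64 (SE 0.46, adjusted p = 0.0236), all ligands of the bone morphogenetic protein branch. Lefty1, a secreted antagonist of nodal, fell by 1.96 (SE 0.39, adjusted p = 0.0063), and Gdf10, another superfamily ligand, by 1.08 (SE 0.25, adjusted p = 0.0119). That count of rises fell to 1 when sham replicate 1 or 3, or KA replicate 1 or 2, was left out. Over all genes, 1629 of 14933, 1688 of 14930, 2239 of 14882 and 2137 of 14886 rose in these fits.

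Of 16 other receptors and co-receptors, 5 rose in KA and 2 fell, beside 19.0% and 14.6% of all genes. Acvrl1, the endothelial type I receptor, rose by 0.85 (SE 0.14, adjusted p = 0.00306) and its co-receptor Eng, endoglin, by 0.80 (SE 0.19, adjusted p = 0.0127). Tdgf1, the nodal co-receptor Cripto, rose by 2.80 (SE 0.42, adjusted p = 0.0025) from a low level of 0.541 ± 0.128 CPM. Rgma, a co-receptor of bone morphogenetic proteins, rose by 0.40 (SE 0.12, adjusted p = 0.0313), and the activin receptor gene Acvr2b fell by 0.71 (SE 0.18, adjusted p = 0.0161). The count of rises ran from 2 (without sham replicate 1 or sham replicate 2) through 3 (without sham replicate 3, KA replicate 1 or KA replicate 2) to 8 (without KA+NBP replicate 2). Rises over all genes ran from 1629 of 14933 (without sham replicate 1) to 3677 of 14854 (without KA+NBP replicate 2).

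Among 20 other SMADs and SMAD regulators, 7 fell in KA and 2 rose, beside 14.6% and 19.0% of all genes, with a median log2 fold change of 0.00. Smad4, the common partner of the receptor-activated SMADs, fell by 0.30 on the log2 scale (SE 0.05, adjusted p = 0.00457), from 102.0 ± 4.42 to 82.9 ± 0.713 CPM. Zfyve9, which anchors SMADs at the receptor, fell by 0.43 (SE 0.09, adjusted p = 0.00738), and Zeb2, a repressor that binds SMADs, by 0.71 (SE 0.11, adjusted p = 0.00285). The 2 that rose were Pmepa1, a negative feedback regulator (1.88, SE 0.37, adjusted p = 0.00613), and Tgif1, a SMAD corepressor (2.37, SE 0.53, adjusted p = 0.0104). Leaving out sham replicate 1 or 3 reduced the falls to 3, and leaving out KA replicate 2 reduced them to 4. Over all genes, 1092 of 14933, 1074 of 14930 and 1541 of 14886 fell in these fits. Without KA+NBP replicate 2 the rises numbered 5, where 24.8% of all genes rose.

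Against KA, the KA+NBP group had 5 of these 20 genes higher and 1 lower, with Zeb2 (0.58, adjusted p = 0.00903), Smad4 (0.26, adjusted p = 0.0125) and Zfyve9 (0.34, adjusted p = 0.0262) among those higher and Pmepa1 lower (-1.46, adjusted p = 0.0228). Without replicate 2 these values were 0.68, 0.26, 0.44 and -2.0. Of the 16 other receptors 3 were lower and 1 higher, and of the 16 other ligands 1 was lower and 2 higher, counts near the shares of all genes (12.7% lower and 10% higher). Without KA+NBP replicate 2, 5 of the SMADs and regulators, 8 of the receptors and 5 of the ligands were lower. In the same order 5, 2 and 2 were higher, where 23.6% of all genes were lower and 19.2% higher. Without any 1 of the other libraries the SMADs and regulators that were higher numbered 2 to 4. Of all genes, between 523 of 14938 (without KA+NBP replicate 1) and 1153 of 14915 (without sham replicate 2) were then higher. Against sham, 0 genes of any of the 5 lists were called.

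**Figure D5:**
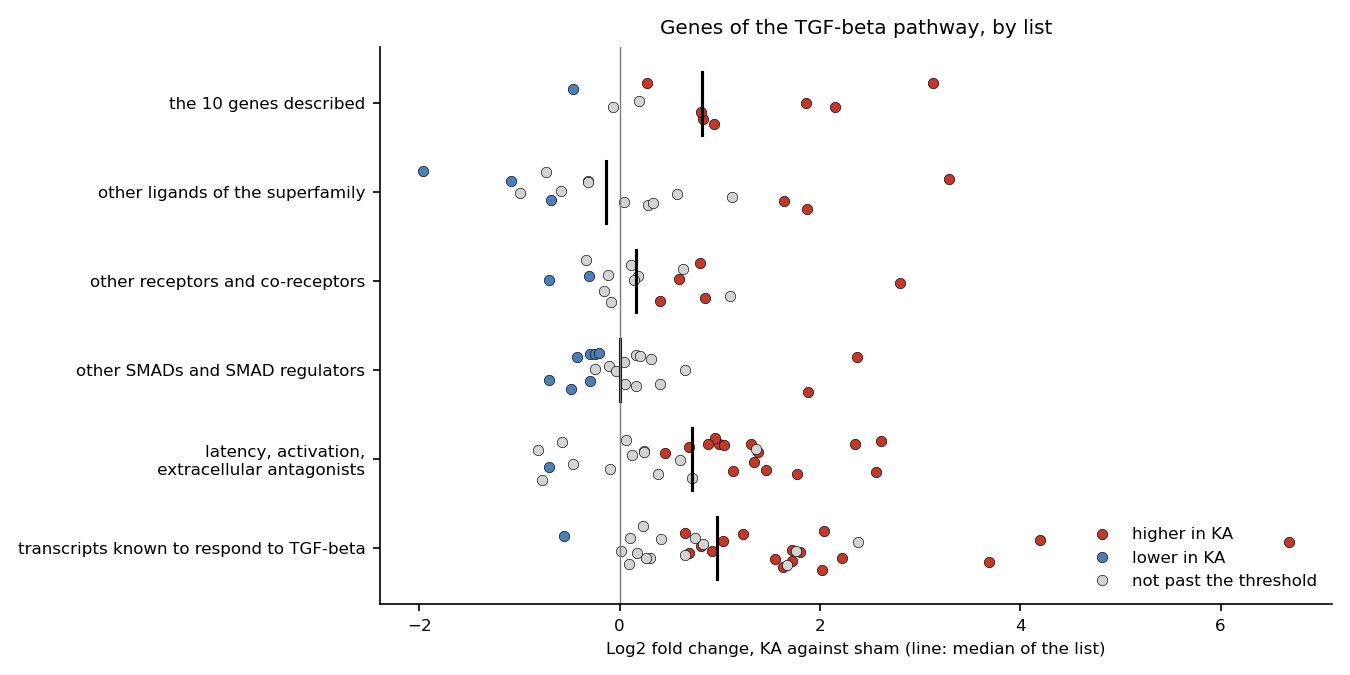
Log2 fold change in KA against sham of the 10 genes and of the tested genes of 5 pathway lists, from edgeR. Points are genes, coloured by whether they were called higher, lower or not, with small vertical scatter for legibility, and the black line is the median of the list. Medians lie at 0.82 for the 10 genes, 0.98 for responsive transcripts and 0.72 for latency genes. The far right point is Timp1, whose fitted value rests on 2 counts in sham.

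The genes whose profiles over the 9 libraries lay nearest to 3 of the genes were found by the root mean square distance of centred log2 CPM, among 14343 tested genes. Near to Tgfb1 were Gusb, at a distance of 0.149, and Tnfaip8l2 at 0.153, where the median gene lay at 0.953. Gusb stood at 13.8, 52.3 and 15.9 CPM in sham, KA and KA+NBP. Nearest to Inhba were Nptx2 at 0.287, Gldn at 0.31 and Penk at 0.325, where the median gene lay at 1.51. Penk stood at 19.2, 228.0 and 67.6 CPM. Nearest to Smad3 were Sdhaf2, Derl2 and Ak6, at 0.0443 to 0.0577 against a median of 0.251, all genes with little difference between the groups. The groups are shared by every gene, so these distances largely restate which genes moved by like amounts.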

How the data were processed

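The authors deposited 1 table of 18474 protein-coding genes, with columns of estimated counts, FPKM and TPM for each library. The estimated counts deposited by the authors include fractions, which make up 5.65 to 6.61% of a library's values. TPM, as the authors deposited them, relate counts to transcript length. The 9 FPKM columns were not used. The tools named are RSEM 1.3.1, Bowtie2 and DESeq2 1.4.5, with the build GRCm39, per the submitters' processing notes, which do not state their roles. Per the labels, TRIzol was used for extraction.

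Rounded estimated counts entered edgeR 4.0.16 in R 4.3.3: filterByExpr kept 14752 genes, TMM factors ran from 0.975 to 1.04, the common dispersion was 0.021, and 1 model held the 9 libraries with a mean per group. Each comparison used the quasi-likelihood F test, Benjamini-Hochberg adjustment over the 14752 genes and a threshold of 0.05. Standard errors were derived from F as the size of the log2 fold change over the root of F. CPM use the TMM factors, and positions and profile distances use log2 CPM with a prior count of 2. Alternatives were DESeq2 1.42.0, its size factors, no filter, limma 3.58.1 on log2(TPM + 1) or log2(TPM + 0.1), only the 6 libraries compared, the replicate number as a block, and each library left out. The code was tested on simulated data. No 2 libraries were identical.

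The labels give no meaning to replicate numbers across groups. Deviations from the group means correlated at 0.301, 0.332 and 0.126 between same-numbered sham and KA+NBP libraries, all above 0.1. For KA+NBP replicate 3 the highest correlation was with sham replicate 1 (0.192), a pair of unlike numbers. The values therefore do not settle whether the numbers pair these 2 groups. Same-numbered pairs with a KA library gave -0.045 to 0.0447, none above 0.1, and differently numbered pairs with a KA library gave -0.102 to 0.0798.

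The 10 genes, the pathway and marker lists and the tests were chosen with earlier results of these data known. All 10 genes are named, with the 5 genes of smallest p in KA against sham from each pathway list, and the 3 nearest profiles to Tgfb1, Inhba and Smad3, predicted genes passed over. An item that these rules name is not reported here. None of the 10 genes overlaps another protein-coding gene of the table.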

Additional observations from a re-analysis of the deposited data

How the results depend on the processing

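For KA against sham, 79 of 90 values of the 10 genes with 1 library left out, and 76 of 80 under the other settings, kept their direction and their side of the threshold, and none turned. Genes called ranged from 2721 to 6700 with 1 library left out, and called members of the 10 from 5 to 8. For KA+NBP against KA, 3355 genes and 5 of the 10 were called, against 1065 and 3 from only the 6 libraries of the 2 groups, and 1295 to 6355 and 4 to 7 with 1 library left out. For KA+NBP against sham, 0 genes were called, and 0 to 1 with 1 library left out. The cause of these differences was not tested. The share of called genes that were higher was 56.5% for KA against sham and 41.0%, 40.3% or 41.9% with limma on TPM, and 44.1% against 59.6%, 60.7% or 59.0% for KA+NBP against KA. Among the lists, rises of latency genes in KA numbered 9 with limma on log2(TPM + 1) and no filter against 15, and rises of other receptors 3 with limma on TPM against 5. Rises in KA over all genes numbered 2202 to 2274 in the fits on TPM, against 2802. From only 6 libraries, falls in KA+NBP against KA numbered 3 against 9 for latency genes and 6 against 14 for responsive transcripts. Falls over all genes there numbered 600 of 14629, against 1875 of 14752. No setting moved the median of all genes by more than 0.08 on the log2 scale.

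Some values that were not called turned sign. In KA+NBP against KA, Smad2 was 0.00 with DESeq2, 0.07 with log2(TPM + 1), 0.08 with log2(TPM + 0.1), 0.07 with log2(TPM + 1) and no filter, and 0.00 from 6 libraries. With 1 library left out it ran from -0.05 to 0.03, and Smad3 from -0.17 to 0.05. In KA+NBP against sham, Smad7 was -0.04, -0.05 and -0.04 with the 3 fits on TPM, and Tgfb1 was 0.00 from 6 libraries. With 1 library left out, Tgfb1 ran from -0.45 to 0.19, Tgfb2 from -0.07 to 0.04, Inhba from -0.23 to 1.64, Tgfbr1 from -0.36 to 0.08, Tgfbr2 from -0.10 to 0.76 and Smad7 from -0.23 to 0.14.

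With the replicate number as a block, 7 of the 10 genes were called in KA against sham, Tgfbr3 being lost (adjusted p = 0.0686), 5 in KA+NBP against KA and 0 in KA+NBP against sham, where Smad7 was -0.01. Of all 14752 genes, that fit called 4784 in KA against sham and 3189 in KA+NBP against KA. A fit with this block of only the 6 sham and KA+NBP libraries, chosen after seeing the data, gave 0 called genes and -0.01 for Smad7. The block changed no other call of the 10 genes. With 3 mice a group, small differences in Inhba could not have been seen.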
